A study of Rattus norvegicus with 4 samples.

Results

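Serum response factor (SRF), its cofactors and the related MEF2 factors were followed in cultured smooth muscle cells of the rat aorta, which contract in the vessel wall, 3 h after platelet-derived growth factor BB (PDGF-BB). The 10 genes were Srf, the coactivators Myocd and Mrtfa, the cofactor Fhl2, the ternary complex factors Elk1, Elk3 and Elk4, and Mef2a, Mef2c and Mef2d. They were found as the probe sets annotated to exactly 1 of these symbols, 18 of 23707 probe sets, and all 10 genes, of 12922 with a single symbol, had at least 1. All cells were plated at 10000 per cm2, held for 24 h in medium with 10% serum and then starved of serum and insulin for 72 h. The treated cells were given 30 ng/mL of PDGF-BB, and the control cells 10 mM acetic acid with 0.2% bovine serum albumin as the vehicle, with 2 Affymetrix arrays in each group. The study looked for early genes of smooth muscle phenotypic modulation, the loss of contractile gene expression on return to growth. For the rats, the sources used here give no strain, sex, age or number.

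SRF binds the CArG box of its target genes as a dimer, and a pair of cofactor families compete for the same surface of it. Ternary complex factors carry an ETS domain, are phosphorylated by ERK and drive immediate early genes such as Fos and Egr1. Myocardin and the myocardin-related factors drive contractile and cytoskeletal genes, and the related factor Mrtfa enters the nucleus when it is released from actin monomers. In smooth muscle the exchange of myocardin for a phosphorylated ternary complex factor on SRF is a known route by which growth factors silence contractile genes. MEF2 proteins share the MADS domain with SRF and are held in check by class II histone deacetylases.

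Whether replicate arrays stem from different cultures is not stated in the labels, and the p-values therefore reflect only array-to-array spread, possibly technical. The median intensity was 144 and 132 on the PDGF-BB arrays, against 145 and 148 on the vehicle arrays. PDGF-BB replicate 1 exceeded PDGF-BB replicate 2 in 67.7% of all probe sets and in 15 of the 18 member probe sets. All 7 smooth muscle markers measured stood above 80.3, the highest of the Bacillus control probe sets and a rough guide to background, in at least 1 group. Their summed intensity, most of it from Acta2, Tagln and Cnn1, was 36340 to 37183 with PDGF-BB, against 38503 to 38959 with vehicle. Of these markers limma called Lmod1, Smtn and Myh11 lower, and Acta2, Tagln, Cnn1 and Des missed the threshold. Of other cell types, 1 of 5 endothelial, 3 of 6 fibroblast, 2 of 6 macrophage and 3 of 6 cardiac or skeletal muscle markers passed that level in at least 1 group. Pecam1 and Vwf of endothelium and Ptprc of leukocytes were at most 23.4 on each array, and the striated muscle gene Actn2 was listed at 1 on each. Other markers of these types read higher. Endothelial Esam read 208 and 201 with PDGF-BB, against 287 and 291 with vehicle, and was called lower (limma adjusted p = 0.0249). Of the macrophage markers, Cd14 read 1292 and 1126 with PDGF-BB, against 1395 and 1473 with vehicle, and Lyz2 between 196 and 219 on the 4 arrays. The highest marker of another type was the cardiac myosin gene Myh6, at 2705 on both PDGF-BB arrays, against 3160 and 3043 on the vehicle arrays. The summed endothelial intensity, most of it from Esam, was 259.6 and 259.7 with PDGF-BB, against 334 and 343 with vehicle. The summed macrophage intensity, most of it from Cd14, was 1504 to 1614 with PDGF-BB, against 1749 to 1783 with vehicle. For cardiac and skeletal muscle, mostly Myh6, the sum was 3012 to 3046 with PDGF-BB, against 3434 to 3555 with vehicle. The fibroblast sums overlapped, at 340 to 393 with PDGF-BB and 371 to 377 with vehicle. The part of these other markers in the results below was not tested. In RNA of whole cultures, a change per cell and a change in the share of cells cannot be told apart. Precision is limited by having 2 arrays a group.

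Fhl2, Elk3, Mef2a and Mef2c rose with PDGF-BB, and Srf, Myocd, Mrtfa, Elk1, Elk4 and Mef2d missed the threshold. By the probe set of each gene with the highest mean, the rise was 2.38-fold for Elk3, 2.56-fold for Mef2a and 2.61-fold for Fhl2. The size of the rise of Mef2c is uncertain, since its vehicle arrays read near background. Counted by probe set, 9 of 18 were higher and 0 lower (limma, adjusted p under 0.05). Among all probe sets 11.4% were higher and 12.9% lower at that threshold, together 24.4%. At an unadjusted p under 0.05, 10 of the 18 were higher and 1 lower, against 4155 higher and 4838 lower of all 23707. Counted by gene, 4 of 10 were higher, against 12.4% of all genes higher, 15.3% lower and 27.7% in either direction. The fold changes are on the log2(intensity + 16) scale, which understates the change of dim genes. The median log2 difference of the 10 genes was 0.44, and that of all genes was -0.03. In 14 member probe sets both PDGF-BB arrays lay above both vehicle arrays and in 2 both lay below, against 29.2% and 33.8% of all probe sets. By gene these numbers were 8 and 1 of 10, against 29.7% and 37.8% of all genes.

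**Figure D1:**
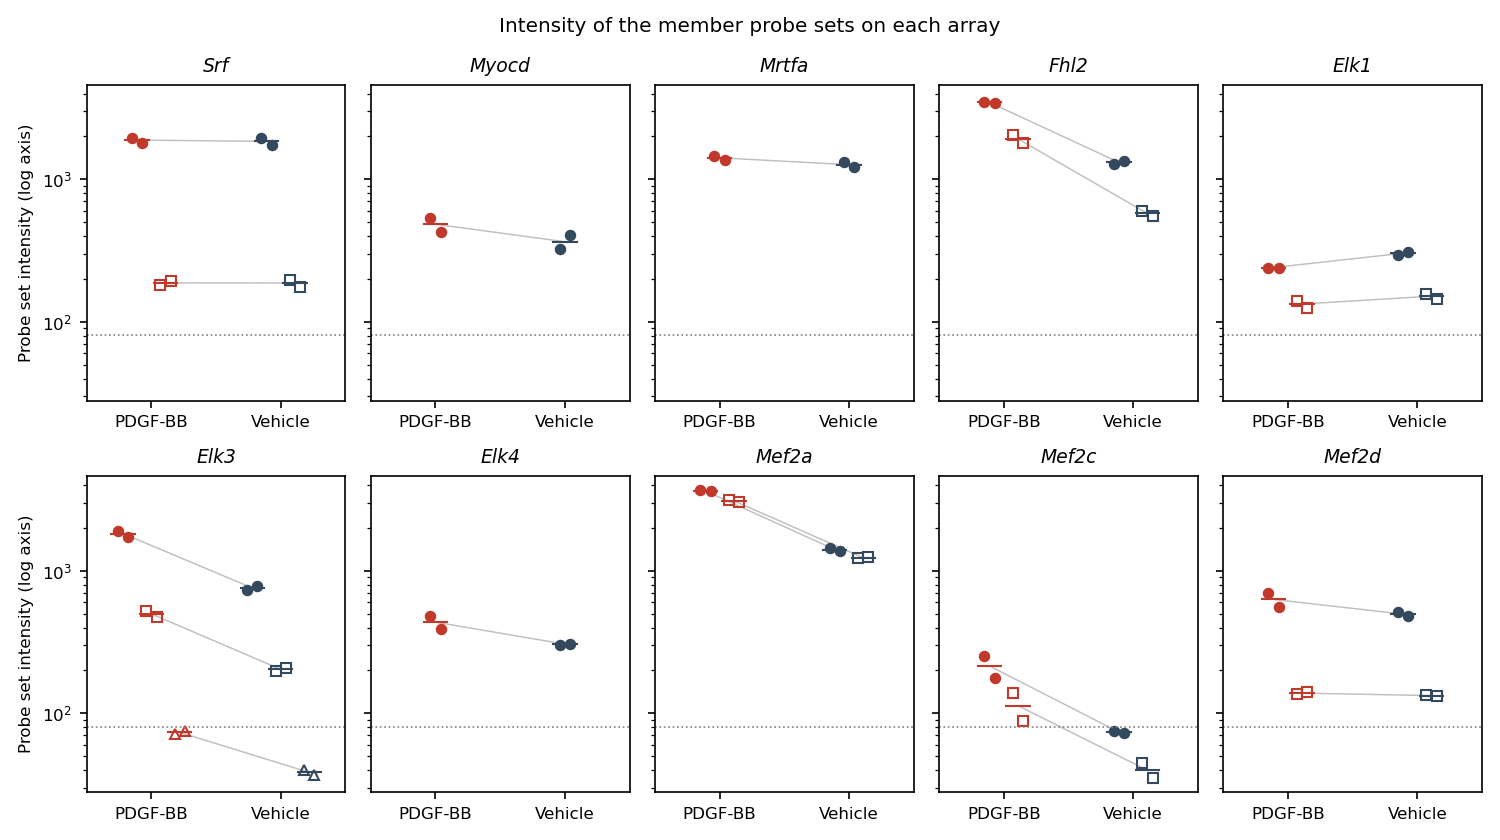
Probe set intensity (log axis) on each array, with the 2 PDGF-BB arrays at the left and the 2 vehicle arrays at the right of each panel. A marker shape is 1 probe set, short bars are group means, and the dotted line is 80.3, the highest Bacillus control. Fhl2, Elk3, Mef2a and Mef2c stand higher with PDGF-BB in each of their probe sets, and Srf is level.

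Srf, the shared DNA-binding partner, did not pass the test. Its brighter probe set, 1388842_at, read 1964 and 1812 with PDGF-BB, against 1956 and 1736 with vehicle. The groups overlapped, and the log2 difference was 0.03 (95% interval -0.26 to 0.33, limma adjusted p = 0.860). In the other probe set, 1374829_at, the arrays read 181 and 195 with PDGF-BB, against 198 and 177 with vehicle, a log2 difference of 0.0035 (interval -0.28 to 0.28). The intervals, which are not adjusted for the number of probe sets, reach at most a 1.25-fold rise and, on the low side, a factor of 0.826. The sign of the brighter probe set turned with quantile normalization (-0.11).

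The Srf promoter is shown because it carries the motif that SRF itself binds. The window runs from 250 bases before to 50 after the RefSeq start (build GRCr8, plus strand), at chr9:21923826-21924125. It holds 2 CArG boxes, in capitals, which begin at -81 and -61. Searched on both strands, the box occurred in 548 of 33469 promoter windows of this length, 1.64%, and no match in the member promoters overlapped another.
Srf promoter: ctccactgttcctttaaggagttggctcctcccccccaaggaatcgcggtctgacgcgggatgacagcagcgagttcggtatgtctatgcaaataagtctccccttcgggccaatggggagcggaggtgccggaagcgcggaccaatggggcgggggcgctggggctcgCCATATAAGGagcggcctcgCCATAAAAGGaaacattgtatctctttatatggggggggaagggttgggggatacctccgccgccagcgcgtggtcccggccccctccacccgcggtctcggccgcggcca

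The coactivators gave differences that missed the threshold. Myocd, which encodes myocardin, read 539.8 and 429 with PDGF-BB, against 325 and 405 with vehicle. Both PDGF-BB arrays were above both vehicle arrays, but PDGF-BB replicate 2 exceeded vehicle replicate 2 by little, and the log2 difference was 0.39 (SE 0.17, limma adjusted p = 0.182). Its interval of -0.07 to 0.85 spans a 1.81-fold rise. Mrtfa, the actin-sensing relative of myocardin, read 1456 and 1377 with PDGF-BB, against 1319.6 and 1216 with vehicle. Here too the groups did not overlap, and the log2 difference was 0.16 (SE 0.10, limma adjusted p = 0.311). Neither gene passed under any of 12 alternatives tried. Mrtfb, the third coactivator of this family, was not analysed here.

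Fhl2, a LIM-domain protein that binds SRF and is itself known as a target of Mrtfa and SRF, rose in both of its probe sets. Probe set 1371951_at read 3512 and 3422 with PDGF-BB, against 1289 and 1344 with vehicle, a log2 difference of 1.39 (SE 0.09, limma adjusted p = 0.00226). Probe set 1369313_at read 2036 and 1812 with PDGF-BB, against 603 and 551 with vehicle, a log2 difference of 1.71 (SE 0.11, limma adjusted p = 0.00234). In both, the PDGF-BB arrays stood far above the vehicle arrays relative to the spread within groups. Both passed under all 12 alternatives, with log2 differences of 1.26 to 1.46 and 1.63 to 1.79. On the same arrays Fhl2 moved by 1.35 more than Srf on the log2 scale, and by 1.20 to 1.51 over the 4 pairs of a PDGF-BB and a vehicle array. For that difference the exact permutation test (two-sided) gave p = 0.333, the smallest that 2 arrays against 2 allow.

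The promoters of Fhl2 are shown beside that of Srf because both RefSeq windows of the gene hold 1 CArG box on the promoter strand (capitals). The upstream window, at chr9:52954491-52954790 on the minus strand, has its box at -95, and the downstream one, at chr9:52923277-52923576, has its box at -58. Srf and Fhl2 were the members with a box among the 8 members that the promoter table holds. The matches are letters in a window, and which start site these cells used was not measured.
Fhl2 upstream promoter: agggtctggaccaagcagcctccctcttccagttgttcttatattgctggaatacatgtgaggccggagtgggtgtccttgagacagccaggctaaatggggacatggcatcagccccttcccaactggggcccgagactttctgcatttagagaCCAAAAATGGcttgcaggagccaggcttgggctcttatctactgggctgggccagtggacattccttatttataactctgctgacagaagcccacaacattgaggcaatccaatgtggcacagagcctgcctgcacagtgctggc
Fhl2 downstream promoter: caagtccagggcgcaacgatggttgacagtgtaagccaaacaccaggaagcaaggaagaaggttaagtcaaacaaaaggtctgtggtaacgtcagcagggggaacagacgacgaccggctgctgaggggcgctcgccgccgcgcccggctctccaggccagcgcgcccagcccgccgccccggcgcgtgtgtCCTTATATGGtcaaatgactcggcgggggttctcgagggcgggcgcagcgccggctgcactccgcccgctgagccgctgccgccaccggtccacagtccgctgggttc

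Of the ternary complex factors, Elk3 passed the test and Elk1 and Elk4 did not. Elk3, also called Net, which represses SRF targets until ERK phosphorylates it, rose in all 3 of its probe sets. Probe set 1389617_at read 1919 and 1738 with PDGF-BB, against 735 and 782 with vehicle, a log2 difference of 1.25 (SE 0.10, limma adjusted p = 0.00380). Probe set 1374134_at read 522 and 476 with PDGF-BB, against 198 and 209.5 with vehicle, a log2 difference of 1.23 (SE 0.10, limma adjusted p = 0.00374). The dimmest, 1384306_at, lay below the Bacillus guide of 80.3 on all arrays, at 71.9 and 75.2 with PDGF-BB, against 39.8 and 37.2 with vehicle. Its smaller log2 difference of 0.72 (SE 0.09, limma adjusted p = 0.00957) lost its call without vehicle replicate 1 (0.0826) or vehicle replicate 2 (0.0929), where the alternatives ranged from 0.00514 to 0.0929. The brighter probe sets kept theirs under all 12 alternatives.

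Elk4, also called SAP-1, read 480.2 and 393 with PDGF-BB, against 304 and 308 with vehicle. Both PDGF-BB arrays were higher, by unequal amounts, and the log2 difference of 0.49 (SE 0.13) narrowly missed the threshold (limma adjusted p = 0.0577). It passed under 7 of 12 alternatives, with adjusted p-values of 0.00933 to 0.245 over the 12. Elk1, the archetypal ternary complex factor, had the opposite sign. Probe set 1388818_at read 241 on both arrays with PDGF-BB, against 297 and 309.6 with vehicle, a log2 difference of -0.31 (SE 0.09, limma adjusted p = 0.0658). Probe set 1385063_at read 141 and 126 with PDGF-BB, against 157 and 146 with vehicle, a log2 difference of -0.17 (SE 0.10, limma adjusted p = 0.319). Both probe sets were lower on each PDGF-BB array than on either vehicle array, a separation seen in 33.8% of all probe sets. The first passed under 2 of 12 alternatives, with adjusted p-values of 0.0195 to 0.335.

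Elk3 moved by 1.57 more than Elk1 on the log2 scale, between 1.48 and 1.65 over the 4 array pairs. Against Elk4 the gap was 0.77, between 0.67 and 0.87. For each gap the exact permutation test gave p = 0.333, again the smallest possible. Of the 3 genes' promoter windows, 1 of the 3 of Elk4 held the ETS motif CCGGAAGT, at -59, a motif found in 3.81% of windows on either strand. No CArG box lay in the windows of Elk1, Elk3 and Elk4.

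**Figure D2:**
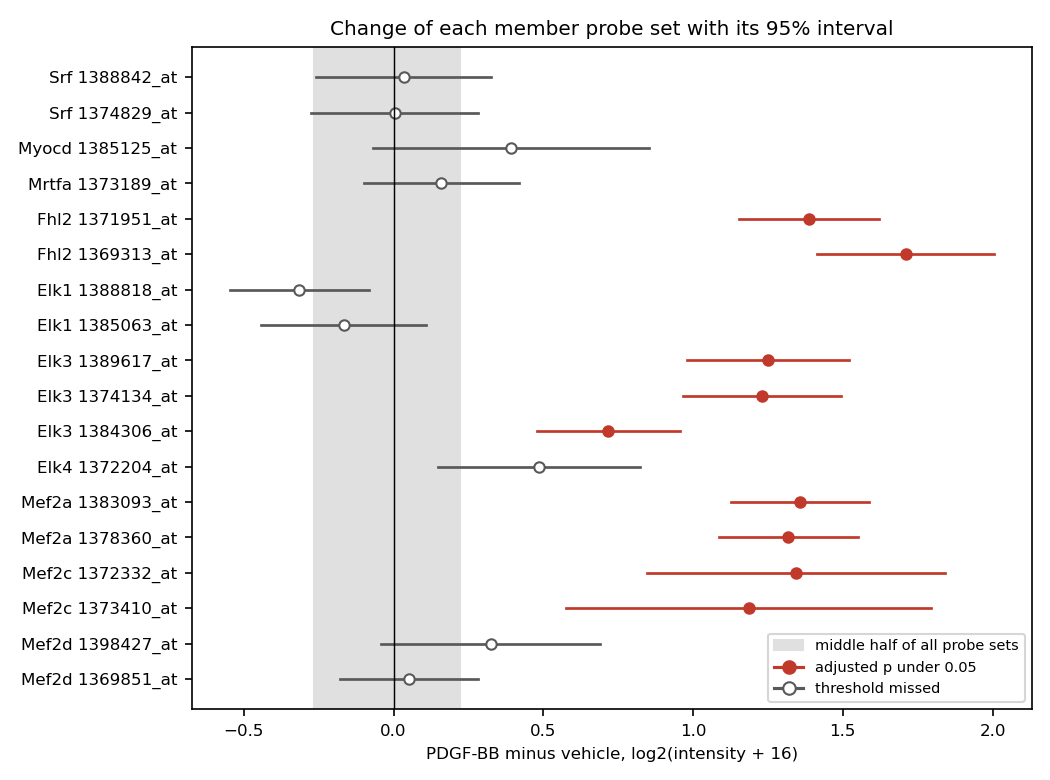
PDGF-BB minus vehicle on the log2(intensity + 16) scale for the 18 member probe sets, with 95% limma intervals that are not adjusted for the number of tests. Filled points passed the adjusted threshold, and the grey band runs between the percentiles 25 and 75 of all probe sets (-0.26 to 0.22). The dimmest probe set of Elk3, at 0.72, lies apart from its other 2, at 1.23 and 1.25, and the 2 of Fhl2 lie at 1.39 and 1.71.

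Among the MEF2 genes, Mef2a and Mef2c rose. Mef2a, a MADS-box activator of muscle and growth-responsive genes, read 3671 and 3611 with PDGF-BB by probe set 1383093_at, against 1436 and 1387 with vehicle. The log2 difference was 1.36 (SE 0.09, limma adjusted p = 0.00228), and its other probe set, 1378360_at, read 3159 and 3048 with PDGF-BB, against 1226 and 1243 with vehicle, a log2 difference of 1.32 (SE 0.09, limma adjusted p = 0.00243). The arrays within each group were nearly level, and both probe sets passed under all 12 alternatives.

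Mef2c, which acts in cardiac and vascular development, was near background with vehicle. Probe set 1372332_at read 254 and 176 with PDGF-BB, against 74.7 and 73.0 with vehicle, a log2 difference of 1.34 (SE 0.19, limma adjusted p = 0.0122). Probe set 1373410_at read 139 and 87.7 with PDGF-BB, against 44.6 and 35.2 with vehicle, a log2 difference of 1.19 (SE 0.23, limma adjusted p = 0.0275). All vehicle values lie below the Bacillus guide, so the size of the rise is uncertain, and PDGF-BB replicate 1 was the higher of its pair in both probe sets. The call of 1372332_at ended without vehicle replicate 1 (adjusted p = 0.0749) or vehicle replicate 2 (0.0747), its range over alternatives being 0.000337 to 0.0749. For 1373410_at the adjusted p was 0.0959 with vehicle replicate 1 left out, 0.130 with vehicle replicate 2 left out, 0.0578 with PDGF-BB replicate 1 left out and 0.0585 with an offset of 1, within a range of 0.00509 to 0.130.

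Mef2d missed the threshold. Probe set 1398427_at read 698 and 562 with PDGF-BB, against 512 and 483 with vehicle, a log2 difference of 0.32 (SE 0.14, limma adjusted p = 0.168). Probe set 1369851_at read 137 and 141 with PDGF-BB, against 135 and 132 with vehicle, a log2 difference of 0.05 (SE 0.09, limma adjusted p = 0.715). The first passed under 1 of 12 alternatives, cyclic loess, with adjusted p-values of 0.0436 to 0.463 over the 12. The groups did not overlap in either, but the gap was small. Mef2a moved by 1.03 more than Mef2d, between 0.88 and 1.19 over the array pairs (exact permutation p = 0.333, the smallest possible). Against Mef2c the gap was 0.014, between -0.23 and 0.26.

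The Mef2a promoter is shown because it holds the only MEF2 site found in the promoter windows of the members. The window lies at chr1:130392113-130392412 on the minus strand (GRCr8), and the site, in capitals, begins at -40. MEF2 sites occurred in 189 of 33469 windows, 0.565%.
Mef2a promoter: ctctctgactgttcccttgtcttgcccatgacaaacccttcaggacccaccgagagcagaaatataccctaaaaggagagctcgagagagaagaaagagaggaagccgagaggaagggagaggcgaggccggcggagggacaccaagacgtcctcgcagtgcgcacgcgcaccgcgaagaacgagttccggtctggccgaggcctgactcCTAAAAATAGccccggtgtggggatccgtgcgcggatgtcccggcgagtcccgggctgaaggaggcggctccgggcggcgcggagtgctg

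**Figure D3:**
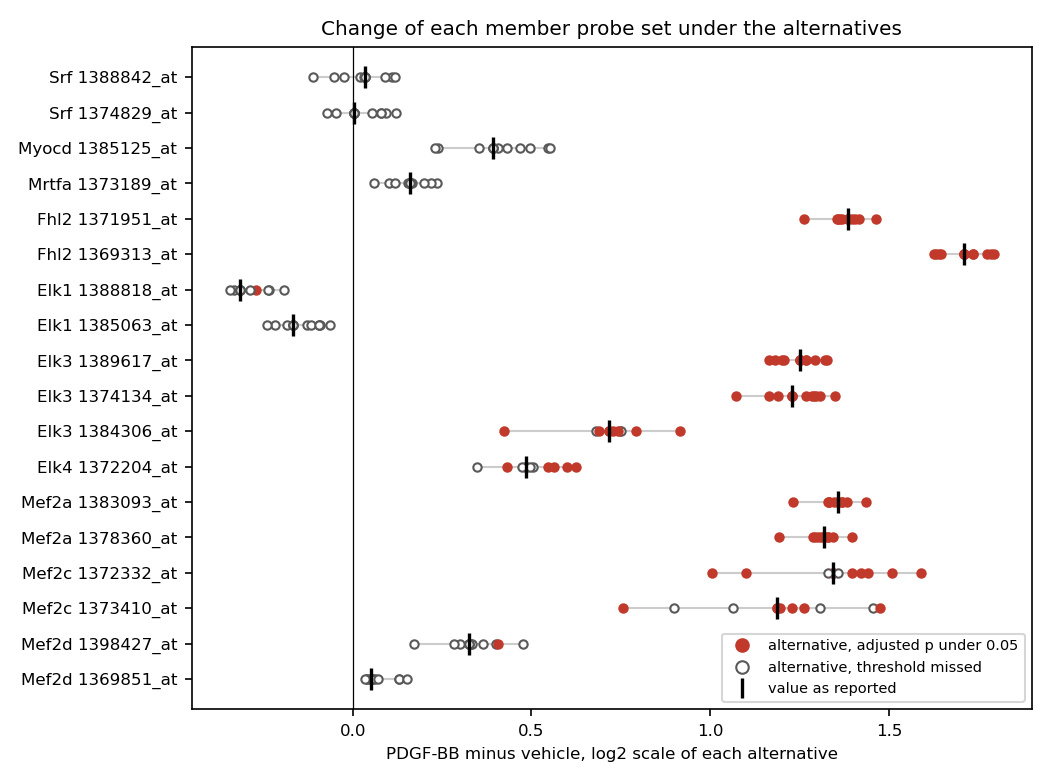
PDGF-BB minus vehicle for each member probe set as reported (black bars) and under the alternatives (points), on the log2 scale of each alternative. Filled points passed the adjusted threshold. Fhl2, Mef2a and the 2 brighter probe sets of Elk3 passed throughout, Elk4 passed in 7 of 12, and the points of Srf lie on both sides of 0.

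Immediate early genes known as targets of SRF with ternary complex factors rose widely. Of 13 immediate early genes on the list, 11 were higher by limma, 0 lower and 2 missed the threshold, against 12.4% of all genes higher and 15.3% lower. At an unadjusted p under 0.05, 12 were higher and 0 lower, against 2387 higher and 2978 lower of all 12922 genes. The median log2 difference was 2.27, against -0.03 over all genes. The list was chosen with earlier results of these data known, so its count is no independent test of SRF activity. Binding of SRF or of a ternary complex factor was not measured. Egr2, a zinc-finger factor, averaged 1047 ± 104 with PDGF-BB, against 14.0 ± 3.00 with vehicle (SD, n = 2), and the vehicle level lay below the Bacillus guide. Junb, an AP-1 subunit, averaged 2676 ± 12.8 with PDGF-BB and 225 ± 2.09 with vehicle, a log2 difference of 3.48 (SE 0.08). The early gene Ier2 rose by 2.59 (SE 0.08), the nuclear receptor gene Nr4a1 by 2.72 (SE 0.09), Egr1 by 2.34 (SE 0.09) and Fos by 1.32 (SE 0.09), the last in 1 of its 2 probe sets. The vehicle arrays of Fos read 48.5 and 52.2, below the Bacillus guide, and its difference was 1.55 with an offset of 1 and 0.90 with an offset of 64. The limma adjusted p of these 6 genes was at most 0.00277.

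Among cytoskeletal and contractile genes that SRF serves with myocardin-related factors, few were called. Of 29 measured, limma called 0 higher and 5 lower, and 24 missed the threshold, against 12.4% of all genes higher and 15.3% lower. The median log2 difference was -0.08. At an unadjusted p under 0.05, 1 was higher and 6 lower, against 2387 higher and 2978 lower of all 12922 genes. The share called, 17.2%, all of it lower, is close to the 15.3% of all genes called lower. All 5 calls fell among the 17 genes at or below an intensity of 8000 with vehicle. Over all genes at or below that level, 1969 of 12801 were called lower. Both PDGF-BB arrays lay below both vehicle arrays in 18 of the 29 genes and above in 5, against 37.8% and 29.7% of all genes. The count called in either direction was 2 with an offset of 1, 3 with the replicate block, 8 with quantile normalization and 10 with a variance trend. Over all 23707 probe sets the counts were 4171, 4954, 7594 and 7392 in the same order, against 5779 as reported. The actin nucleator leiomodin, Lmod1, averaged 548 ± 37.0 with PDGF-BB, against 1818 ± 157 with vehicle, and fell by 1.70 (SE 0.11, limma adjusted p = 0.00246). Smtn, which encodes the contractile-cell protein smoothelin, fell by 0.79 (SE 0.10), the myosin heavy chain gene Myh11 by 0.70 (SE 0.13) and the myosin kinase gene Mylk by 0.49 (SE 0.10), the last 2 each in 1 of 2 probe sets. With an offset of 1, Myh11 and Mylk lost their calls (adjusted p = 0.0567 and 0.0637), and Mylk also lost its call with the replicate block (0.0558). Acta2 and Tagln, with log2 differences of -0.10 and 0.02, missed the threshold. The Tagln value turned negative with quantile normalization (-0.028) and cyclic loess (-0.11). The 12 members above an intensity of 8000 with vehicle all missed it, as did all but 7 of the 121 genes at that level. With vehicle replicate 1, PDGF-BB replicate 2 or vehicle replicate 2 left out, 1 of the 29 genes was called in each case, and Smtn, Myh11 and Mylk then had adjusted p-values of 0.0531 to 0.201. Of the alternatives, 4 called 1 gene higher. A CArG box lay in the promoter windows of 2 of 10 immediate early genes and 3 of 23 cytoskeletal genes in the promoter table, against 1.77% of all genes there. Only exact boxes of 10 bases were counted, with CC, then A or T alone, then GG. Boxes with a mismatch, or outside the window from 250 bases before to 50 after the start, were not searched for.

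**Figure D4:**
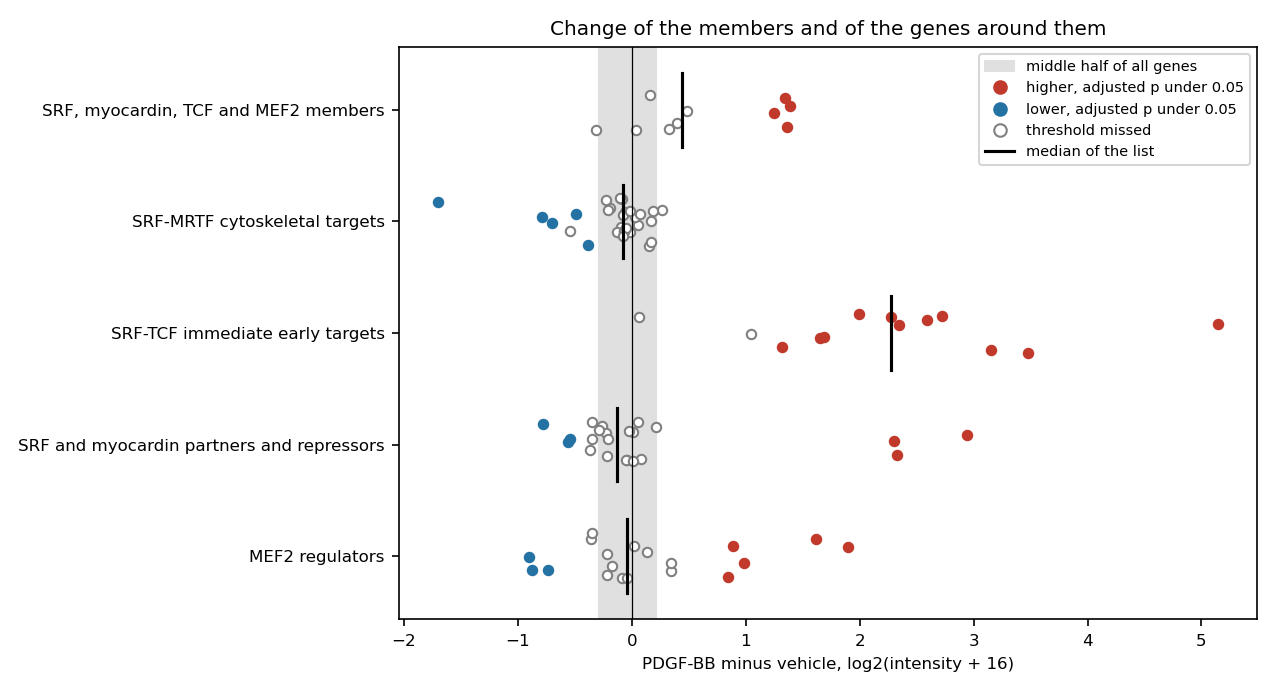
PDGF-BB minus vehicle on the log2(intensity + 16) scale for each measured gene of the members and of 4 lists, 1 point per gene, with the median of each list as a black bar. The grey band spans the percentiles 25 to 75 of all genes (-0.29 to 0.21). The immediate early targets have a median of 2.27, and the cytoskeletal targets one of -0.08.

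Of the partners and repressors of SRF and myocardin, Klf4, Klf5 and Fhl3 rose. Of 22 measured, 3 were higher, 3 lower and 16 missed the threshold, with a median of -0.13. The share called, 27.3%, is at the background of 27.7% of all genes, so the count as reported says nothing particular about the list. With quantile normalization 3 were higher and 9 lower, where 4307 of all 23707 probe sets were lower. With a variance trend 3 were higher and 7 lower, where 3959 of all probe sets were lower. The other alternatives with all arrays called 5 to 8 genes. Klf4, which represses contractile genes, averaged 2214 ± 30.8 with PDGF-BB, against 275 ± 9.40 with vehicle, a log2 difference of 2.94 (SE 0.09, limma adjusted p = 0.000582). The related factor gene Klf5 rose by 2.33 (SE 0.09). Fhl3, a LIM-domain gene of the family of Fhl2, averaged 3277 ± 75.5 with PDGF-BB, against 653 ± 21.8 with vehicle, and rose by 2.30 (SE 0.09, limma adjusted p = 0.000734). The SUMO ligase gene Pias1 fell by 0.78 (SE 0.09). Without vehicle replicate 1 or vehicle replicate 2 the 3 rises alone were called, and Pias1 had adjusted p-values of 0.0724 and 0.0836.

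Of 19 regulators of MEF2 measured, 5 were higher, 3 lower and 11 missed the threshold, with a median of -0.05, against 12.4% of all genes higher and 15.3% lower. The 3 lower calls are near the background share. Rcan1, a calcineurin inhibitor, averaged 1799 ± 77.4 with PDGF-BB, against 472 ± 18.5 with vehicle, and rose by 1.90 (SE 0.09, limma adjusted p = 0.00126). The salt-inducible kinase gene Sik1, known to phosphorylate class II histone deacetylases, rose by 1.61 (SE 0.14) in 1 of 2 probe sets, with a vehicle mean of 28.1, below the Bacillus guide. Camk2d, a calcium-dependent kinase gene, rose by 0.89 (SE 0.09) in 2 of 3 probe sets, and Map2k5, whose product activates the MEF2 kinase ERK5, fell by 0.88 (SE 0.09). The related Camk2g fell by 0.74 (SE 0.13) in 1 of 2 probe sets, and Prkd2 fell by 0.90 (SE 0.10). The class II histone deacetylase genes Hdac5 and Hdac7 rose by 0.99 (SE 0.12) and 0.85 (SE 0.10), with limma adjusted p = 0.00986 and 0.00762. Hdac4 missed the threshold (-0.08). Without vehicle replicate 1 or vehicle replicate 2 the count was 2 of 19, and the adjusted p was then 0.0664 and 0.0573 for Camk2d and 0.0702 and 0.0661 for Map2k5. Among all probe sets the count called was 1272 without vehicle replicate 1 and 1383 without vehicle replicate 2, and it was 3017 with PDGF-BB replicate 2 left out, against 5779 with all arrays.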

How the data were processed

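RNA was measured on 4 Affymetrix arrays, per the labels. The table the authors deposited holds linear probe set intensity values, judged from the values themselves; software, background correction, scaling and detection calls: not given in the sources used here. Of 23764 probe sets, 57 controls were left out. A platform annotation of 2016 gave 1 symbol for 17279, several for 373 and none for 6055; all 10 members matched RefSeq gene identifiers. A gene was represented by its probe set with the highest mean over the 4 arrays. Tests ran on log2(intensity + 16) in limma 3.58.1 (lmFit, eBayes) under R 4.3.3, two-sided, Benjamini-Hochberg adjusted over 23707 probe sets, threshold 0.05. The procedure was also run on simulated data with independent noise and far fewer changed probe sets than were called here. That run does not show how the procedure performs on these arrays. Exact permutation tests used scipy 1.17.1. Groups came from sample titles.

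The members and lists were chosen with earlier results of these data known. Named genes were all members, the 4 of each list with the lowest p-values, and Mrtfb, Klf4, Fos, Egr1, Acta2, Tagln and Myh11. Hdac4, Hdac5, Hdac7, Camk2g and Prkd2 are given beside them and are not among the named list genes counted below. Of 87 listed symbols 83 were measured; a further list is not reported here. Alternatives were 3 normalizations, 2 offsets, a filter on dim probe sets, a variance trend, a replicate block, leaving out each array and another choice of probe set. Promoters were taken from RefSeq, build GRCr8, and matched by symbol for 8 of 10 members.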

Additional observations from a re-analysis of the deposited data

How the results depend on the processing

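Of the 89 counts of calls under alternatives, 73 stayed within 1.5 times the count as reported. The number of member genes called ran from 3 to 6 and that of member probe sets from 6 to 11. The background moved as well. Of all 23707 probe sets, 7594 were called with quantile normalization and 7392 with a variance trend. With an offset of 1 the count was 4171, and with the replicate block 4954. With the filter on dim probe sets, 9 of 16 member probe sets were called, against 7306 of all 14129 kept. Cytoskeletal targets called were 8 with quantile normalization, 2 with an offset of 1, 10 with a variance trend and 3 with the replicate block. Partners and repressors called were 12 with quantile normalization, 9 of them lower, and 10 with the trend, 7 of them lower. Leaving out 1 array in turn gave 1272 to 4223 probe sets over the whole table, 1 to 5 cytoskeletal targets, 3 to 6 partners and repressors and 2 to 8 MEF2 regulators; these fits have 1 array in a group, assumed to vary like the other group. The cause of these shifts was not tested. Of 214 values of member probe sets, 191 kept direction and call, 8 lost the call, 10 gained it and 5 changed sign, all of Srf: -0.11 with quantile normalization in the brighter probe set, and a range of -0.052 to 0.12 in the brighter and -0.072 to 0.079 in the dimmer one when 1 array was left out (sign changes at -0.052, -0.024, -0.072 and -0.048). Of 239 values of named list genes, 18 lost the call, 0 gained it and 4 changed sign, all of Tagln: -0.028 with quantile normalization, -0.11 with cyclic loess, and -0.0077 and -0.0081 within a range of -0.0081 to 0.056 when 1 array was left out. The replicate numbers are not known to pair the arrays (correlation of deviations -0.098); with the replicate block 4954 probe sets were called, 9 of them members. Values near the Bacillus guide, as in Mef2c, limit the size of a change.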
